A study of Mus musculus with 6 samples.

Results

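The genes described here are the activators of the circadian clock and the factors that bind next to them: *Arntl* (the gene of BMAL1), *Clock* and *Npas2*, the REV-ERB genes *Nr1d1* and *Nr1d2*, the ROR gene *Rora*, and the DEC genes *Bhlhe40* and *Bhlhe41*. All 8 were present among the 12353 genes of the deposited expression table. They were compared between the gastrocnemius, a calf muscle of mostly fast fibers, of 3 Nogo+/+ (wild-type) mice, Samples 1 to 3, and 3 mice with a Nogo knockout (Nogo-/-), Samples 4 to 6, with polyadenylated RNA sequenced in 1 library per mouse and no treatment named for either group. The mice were kept on a light-dark cycle. The study names the laboratory its knockout line came from. For an injury experiment it gives the age and sex of the mice of both genotypes, and a strain (C57BL/6 J) for the wild-type mice only. None of these is tied to the sequenced mice, and the time of day at collection is not given in the sources used here. The members were chosen from this same comparison of genotypes, so their levels and fold changes are given as a description, without a test.

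In the mammalian clock, BMAL1 pairs with CLOCK or NPAS2 and switches on genes that carry an E-box, among them the Period, Cryptochrome, REV-ERB and DEC genes. Period and Cryptochrome proteins block the pair directly, the DEC proteins compete for the E-box, and the REV-ERB receptors, whose ligand is heme, silence *Arntl*, *Npas2* and *Clock* through a different element, the RORE, at which the ROR receptors activate. In mouse tissues that follow a light-dark cycle, *Arntl*, *Npas2* and *Clock* messages are high around the end of the night, those of the REV-ERB genes around the middle of the day, and those of *Dbp*, *Per1* and *Per2* from late in the day to dusk. In skeletal muscle this clock times the use of glucose and fat.

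The members lie on 7 chromosomes of GRCm38. The activators are *Arntl* (ENSMUSG00000055116, chr7:113207465-113314126, plus strand), *Clock* (ENSMUSG00000029238, chr5:76209868-76304792, minus strand) and *Npas2* (ENSMUSG00000026077, chr1:39193731-39363236, plus strand). The nuclear receptors are *Nr1d1* (ENSMUSG00000020889, chr11:98767932-98775333, minus strand), *Nr1d2* (ENSMUSG00000021775, chr14:18204054-18239127, minus strand) and *Rora* (ENSMUSG00000032238, chr9:68653786-69388246, plus strand). Both DEC genes lie on chromosome 6, *Bhlhe40* (ENSMUSG00000030103) at chr6:108660629-108666925 on the plus strand and *Bhlhe41* (ENSMUSG00000030256) at chr6:145858243-145865558 on the minus strand.

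Matches to the letters of clock elements are shown first. They come from the RefSeq promoter windows of GRCm38.p6, which span 250 bases before a start site and 50 from it on. Windows were found for 7 of the 8 genes, 10 in all, with *Arntl* holding 2 and *Clock* 3. *Bhlhe40* had no window and was not searched. *Arntl*, on chromosome 7, has start sites 46 bases apart, and between and after them stand 2 elements of the RORE kind, which are the sites of the REV-ERB and ROR receptors. Each is shown in a stretch of 30 bases, with the element in capitals.
Arntl, TAGGTTA, chr7:113207493-113207522, plus strand: ttggtcggaaagTAGGTTAgtggtgcgaca
Arntl, TAGGTCA, chr7:113207527-113207556, plus strand: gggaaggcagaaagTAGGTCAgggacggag

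The letters TAGGTCA, searched on both strands, occurred in 2.61% of 32851 windows of all genes, and TAGGTTA in 1.44%. Neither occurred in the windows of the other 6 members with a window. An E-box, CACGTG, which 7.15% of all windows held, was found upstream of *Bhlhe41*. The variant CACGTT, in 4.68% of all windows, was found upstream of *Nr1d1*, where it reads AACGTG on the strand of the gene. Both are shown in 40 bases, on the minus strand as the gene reads, with the element in capitals.
Bhlhe41, E-box, chr6:145865551-145865590, minus strand: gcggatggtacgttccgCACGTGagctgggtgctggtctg
Nr1d1, E-box variant, chr11:98775383-98775422, minus strand: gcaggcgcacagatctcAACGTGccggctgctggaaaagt
None of the 7 members with a window held a D-box, TTANGTAA, the site of DBP, TEF and HLF (2.32% of all windows). A match is a string of letters and no measure of binding, and elements outside these short windows were not searched.

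Expression is given as FPKM, fragments scaled to the length of the transcript and to the mapped fragments of the library, which allows levels to be compared between genes. Depth, recovered from the steps in low FPKM, was 13.5M to 14.5M fragments per library. *Rtn4*, the gene of Nogo, was at 414 to 429 FPKM in Nogo+/+ and 0.312 to 0.423 in Nogo-/- muscles, and all 12 genes marking muscle fibers were expressed in every library. Sample 6 stood apart in 10 genes of skin keratinocytes, whose summed FPKM was 285 there and 7.37 to 19.8 in the other 5 libraries. Sample 4 stood apart in 8 adipocyte markers, with a sum of 927 FPKM against 482 to 591 in the other Nogo-/- and 417 to 502 in the Nogo+/+ muscles. None of these 8 passed in limma, but 3 passed as higher without Sample 6 and none without any other single mouse. With all 6 libraries, 5 had an unadjusted p under 0.05, and all had a log2 fold change above 0 (median 0.57). Of 6 endothelial markers, 5 fell in limma, or 2 to 5 without single mice (2 without Sample 1, 2, 3 or 6), and their summed FPKM was 194 to 219 in Nogo+/+ and 133 to 168 in Nogo-/- muscles. *Kdr* and *Cldn5* were called in all 6 of these fits. Of 6 smooth muscle markers, 2 fell, or 0 to 2 without single mice (0 without Sample 2, 3 or 4 and 1 without Sample 1 or 6), with sums of 228 to 236 and 164 to 207. With all 6 libraries, 1.89% of all genes rose and 2.75% fell in limma. In whole muscle, fewer cells of a type and less RNA per cell cannot be told apart. The part of these cells in the clock genes was not tested.

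Fold changes were computed with limma on log2 of the quantile-normalized FPKM + 1, a scale that understates the change of low genes, and genes with a Benjamini-Hochberg adjusted p under 0.05 over all genes are described as changed. By that rule 4.64% of all genes changed, 1.89% higher and 2.75% lower in Nogo-/- muscles, and the higher genes made up 40.7% of those changed, or 56.3% without quantile normalization. Of the 8 members, 3 (*Arntl*, *Npas2* and *Clock*) were among the lower and 2 (*Nr1d2* and *Bhlhe40*) among the higher genes, and the same 5 were counted without Sample 4 and without Sample 6. The 3 Nogo-/- mice did not overlap the 3 Nogo+/+ mice for 7 of the members, as was the case for 25.9% of all genes (15.9% higher and 10.0% lower). *Nr1d1* was the exception. As the members were picked on this comparison, nothing is read from these counts.

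The activators were low together in the Nogo-/- muscles, but to very different depths. *Arntl*, the partner that both CLOCK and NPAS2 need, was at 15.6, 15.2 and 15.0 FPKM in Samples 1, 2 and 3, and at 2.20, 1.33 and 1.41 in Samples 4, 5 and 6. The Nogo-/- mean of 1.65 ± 0.479 (SD, n = 3) was thus 10.8% of the Nogo+/+ mean of 15.2 ± 0.315 (SD, n = 3), a log2 fold change of -2.67 with a standard error of 0.11. All Nogo-/- mice lay far below all Nogo+/+ mice, and among the 12353 genes only 5 had a larger absolute log2 fold change. *Npas2*, a relative of CLOCK that can take its place, was at 1.44, 1.47 and 1.27 FPKM in the Nogo+/+ mice and at 0.119, 0.0816 and 0.171 in the Nogo-/- mice. Its mean was 8.90% of that in Nogo+/+ muscles, whereas its log2 fold change was only -1.15 (standard error 0.13) because the pseudocount of 1 is large beside such levels. With a pseudocount of 0.1 the log2 fold change was -3.03. *Npas2* has a row in the table only through its Nogo+/+ values, as no Nogo-/- library reached the 1 FPKM needed. If all *Npas2* fragments came from the longest coding transcript, of 4236 bases, the FPKM correspond to 84, 84 and 78 fragments in the Nogo+/+ and 7, 5 and 10 in the Nogo-/- libraries, so the low values rest on few fragments, although the groups lie far apart.

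*Clock*, which encodes the usual partner of BMAL1, was the least reduced of the activators. It was at 5.39, 6.10 and 5.85 FPKM in Samples 1, 2 and 3 and at 3.15, 3.28 and 3.38 in Samples 4, 5 and 6. The mean was 56.6% of that in Nogo+/+ muscles, and the groups did not overlap (log2 fold change -0.71, standard error 0.08). The Nogo-/- mice lay close together, with an SD of 0.120 FPKM around a mean of 3.27.

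**Figure D1:**
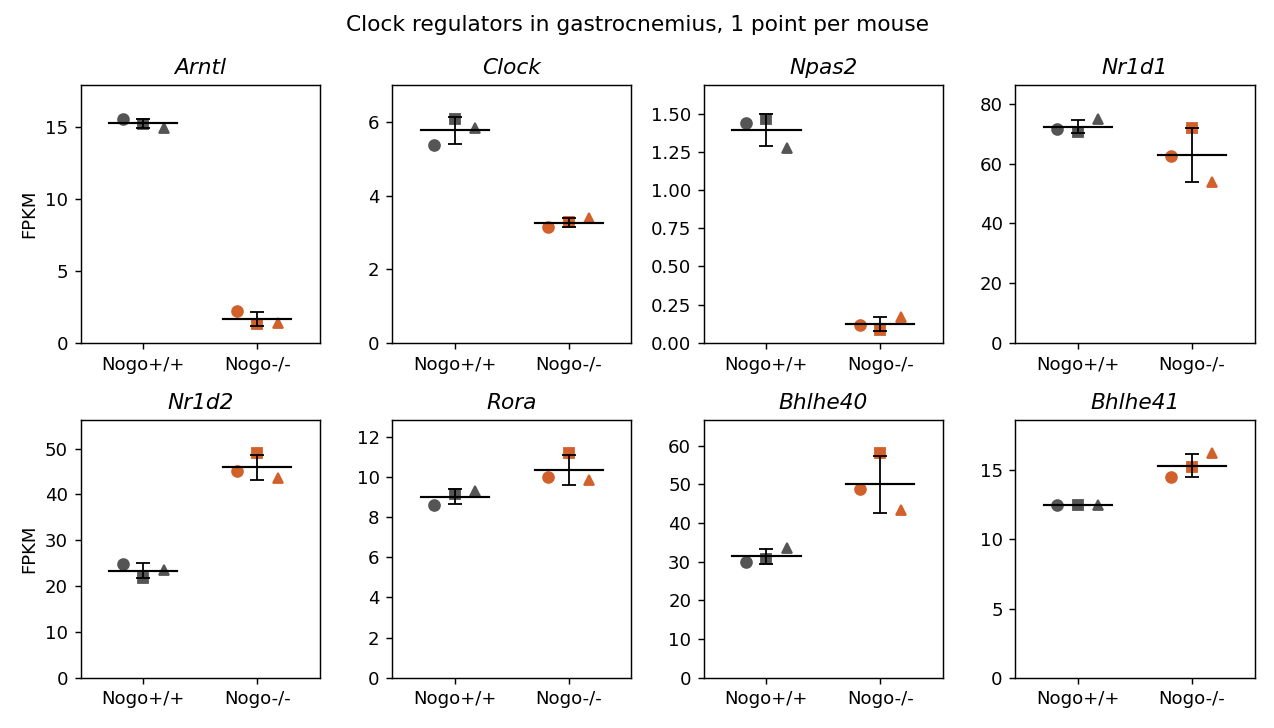
FPKM (vertical axes, each from 0) of the 8 genes in each mouse, with Nogo+/+ in gray and Nogo-/- in orange; symbols mark the mice, horizontal lines the means and bars the SD of 3 mice. *Arntl*, *Npas2* and *Clock* are lower and *Nr1d2* and *Bhlhe40* higher in all Nogo-/- mice, whereas the groups overlap for *Nr1d1*, at 70.7 to 75.1 against 53.7 to 71.8 FPKM.

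The order of the partners was turned around. In the Nogo+/+ muscles there were 2.89, 2.49 and 2.56 *Arntl* messages per *Clock* message in FPKM, and in the Nogo-/- muscles 0.699, 0.406 and 0.416. *Arntl* was therefore above *Clock* in each Nogo+/+ mouse and below it in each Nogo-/- mouse. *Npas2* was at 0.218 to 0.267 of the *Clock* level in Nogo+/+ muscles and at 0.0248 to 0.0506 in Nogo-/- muscles, so that *Clock* was the main partner gene by level in all 6 mice.

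The REV-ERB genes, which encode the repressors of *Arntl*, did not move together. *Nr1d1* (REV-ERBα) was the most abundant member in both groups. It was at 71.4, 70.7 and 75.1 FPKM in the Nogo+/+ mice and at 62.6, 71.8 and 53.7 in the Nogo-/- mice. Sample 5 lay among the Nogo+/+ values and Samples 4 and 6 below them, for a log2 fold change of -0.25 (standard error 0.09). Without single mice it ranged from -0.34, without Sample 5, to -0.15, without Sample 6. *Nr1d2* (REV-ERBβ) was at 24.9, 21.7 and 23.5 FPKM in the Nogo+/+ mice and at 45.1, 49.0 and 43.7 in the Nogo-/- mice. All Nogo-/- values lay well above the Nogo+/+ values, with a ratio of the means of 1.97 and a log2 fold change of 0.89 (standard error 0.06).

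*Nr1d1* overlaps the end of the thyroid hormone receptor gene *Thra* on the opposite strand by 1075 bases. The means of *Thra* were 44.1 ± 0.527 and 39.2 ± 1.37 FPKM (SD, n = 3 each) with and without Nogo (log2 fold change -0.21, adjusted p = 0.0384 from limma, and 0.0685 to 0.148 without single mice, so that none of these 6 fits kept the call). The kit keeps the strand, but whether it was used in counting is not given in the sources used here, so some reads may be shared. No other gene that overlaps a member in the annotation had a row in the table.

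Set side by side within each mouse, the *Nr1d1* level was 2.87, 3.26 and 3.20 times that of *Nr1d2* in the Nogo+/+ and 1.39, 1.47 and 1.23 times in the Nogo-/- muscles. The sum of both REV-ERB messages was at 92.4 to 98.5 FPKM in Nogo+/+ and 97.4 to 121 in Nogo-/- mice, and the groups overlapped. The share taken by *Nr1d2* was thus larger in every Nogo-/- mouse, whereas the range of the summed level overlapped between the groups. Relative to *Arntl*, *Nr1d1* was 4.59 to 5.02 times as high in Nogo+/+ and 28.5 to 53.9 times as high in Nogo-/- muscles, and *Nr1d2* 1.43 to 1.60 and 20.5 to 36.8 times. Over all activators and both REV-ERB genes, the mean log2 FPKM of the activators less that of the REV-ERB genes was -3.05 ± 0.105 (SD, n = 3) in Nogo+/+ and -5.97 ± 0.366 (SD, n = 3) in Nogo-/- mice, a difference of -2.92, or -1.83 on the log2 scale of quantile-normalized FPKM + 1. *Arntl* and *Npas2*, at log2 levels of -2.79 to -3.51 and -3.02 to -4.09 against their Nogo+/+ means, moved it the most.

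**Figure D2:**
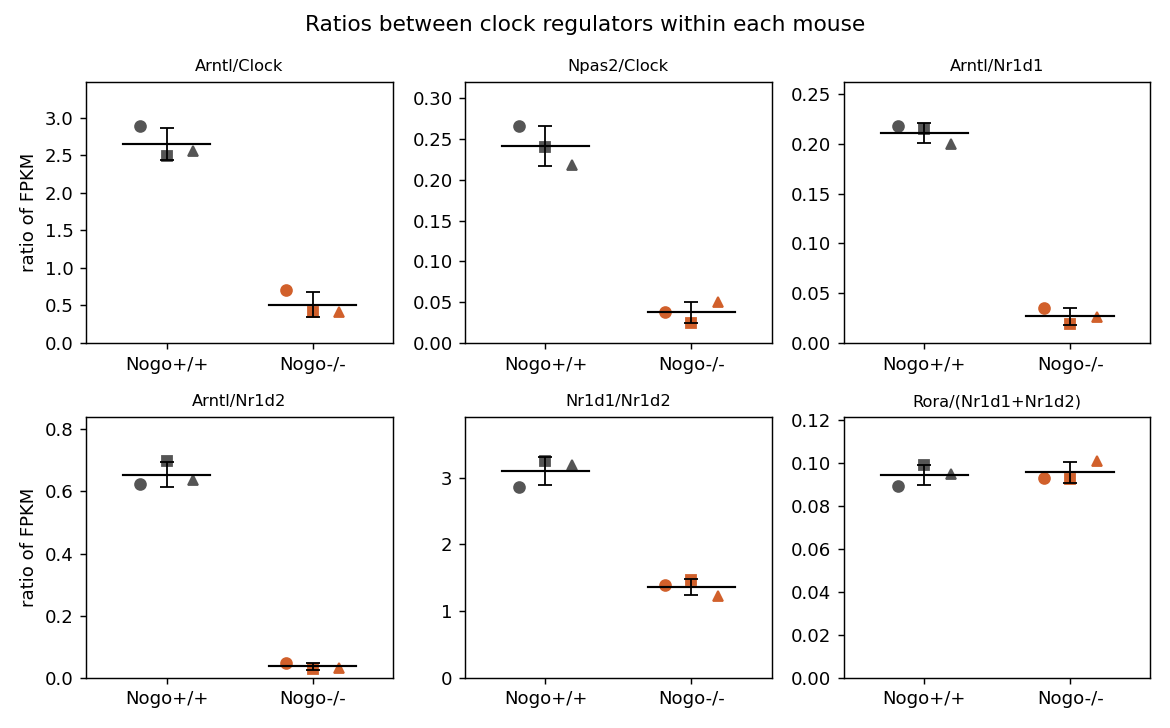
Ratios of FPKM within each mouse (vertical axes, each from 0), with Nogo+/+ in gray and Nogo-/- in orange; lines mark means and bars the SD of 3 mice. The ratios with *Arntl* or *Npas2* on top are several times lower in Nogo-/- mice, the *Nr1d1* to *Nr1d2* ratio goes from a mean of 3.11 to 1.36, and the *Rora* to REV-ERB ratio is 0.0944 and 0.0956.

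*Rora*, the receptor that activates at the same element as REV-ERB represses, was somewhat higher in the Nogo-/- mice. Its FPKM was 8.61, 9.15 and 9.33 in Nogo+/+ and 10.0, 11.2 and 9.86 in Nogo-/- mice, and the log2 fold change was 0.13 (standard error 0.07). The groups did not overlap, but the gap was small. Divided by the summed REV-ERB level, *Rora* was at 0.0894 to 0.0990 in Nogo+/+ and 0.0926 to 0.101 in Nogo-/- mice, so the message ratio of activator to repressors at the RORE overlapped between the groups.

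The DEC genes, which encode E-box repressors, were both higher in all Nogo-/- mice. *Bhlhe40* (DEC1) was at 29.9, 30.8 and 33.6 FPKM in Nogo+/+ and 48.7, 58.1 and 43.4 in Nogo-/- mice, a ratio of the means of 1.59 and a log2 fold change of 0.60 (standard error 0.09). The values spread more widely among the Nogo-/- mice. *Bhlhe41* (DEC2) was at 12.5 FPKM in each Nogo+/+ mouse and at 14.5, 15.2 and 16.2 in the Nogo-/- mice. Its ratio of means was 1.23, and its log2 fold change was 0.23 (standard error 0.07). No Nogo-/- value reached down to the Nogo+/+ level. Per *Arntl* message, *Bhlhe40* was at 1.92 to 2.24 in Nogo+/+ and 22.2 to 43.6 in Nogo-/- muscles.

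Ordered by level, the Nogo+/+ muscles had *Nr1d1* at the top, then *Bhlhe40*, *Nr1d2*, *Arntl*, *Bhlhe41*, *Rora*, *Clock* and *Npas2*, and the ranges of neighbors in this order did not overlap. In the Nogo-/- muscles *Arntl* went from the fourth to the seventh place, below *Clock*. There, *Nr1d1*, *Bhlhe40* and *Nr1d2* followed each other with ranges of 53.7 to 71.8, 43.4 to 58.1 and 43.7 to 49.0 FPKM, so that the top places overlapped.

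The other arms of the clock were read from lists of genes, which were also written with earlier results of these data known. Of 11 genes analysed of the Period and Cryptochrome arm and its turnover, 5 rose, 2 fell and 4 did not pass, with a median log2 fold change of 0.11 against -0.01 over all genes. Those that rose were *Per1*, *Per2*, *Per3*, *Cry2* and *Ciart*, which encode repressors of the BMAL1 pairs. *Per2* was barely detected in Nogo+/+ muscles, at 0.427 ± 0.114 FPKM (SD, n = 3). Without Nogo it reached 5.33 ± 0.605 (SD, n = 3), a log2 fold change of 2.09. Only its Nogo-/- values met the limit of 1 FPKM for a row in the table. Its change and its place among the 5 are therefore a description and not a test. *Cry1*, a Cryptochrome whose gene also answers to REV-ERB, fell by 0.76 on the log2 scale (limma, adjusted p = 0.00281), whereas its paralog *Cry2* was at 0.87 (limma, adjusted p = 4.85e-04). *Timeless* also fell, at -0.50 (limma, adjusted p = 0.0302), a call that held in 1 of the 6 fits without a single mouse (adjusted p up to 0.123). The turnover genes *Fbxw11*, *Btrc*, *Csnk1d* and *Csnk1e* did not pass.

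Of 9 measured PAR bZIP factors and clock outputs, 6 rose, none fell and 3 did not pass, with a median log2 fold change of 0.65. Beside this stand the 1.89% of all genes that rose and the 2.75% that fell. *Dbp*, a direct E-box target of the BMAL1 pairs, went from 16.4 ± 1.08 FPKM (SD, n = 3) with Nogo to 154 ± 11.8 (SD, n = 3) without it (log2 fold change 3.11, adjusted p = 1.85e-07 in limma). Thus the message of this target was high in the same mice in which that of *Arntl* was low, with 1.01 to 1.17 *Dbp* per *Arntl* in Nogo+/+ and 67.6 to 125 in Nogo-/- muscles. *Usp2*, a ubiquitin protease, *Tspan4* and *Hlf* rose as well, at 1.46, 1.13 and 0.91. *Nfil3*, which is silenced by REV-ERB and opposes DBP, had means of 17.0 ± 0.583 and 12.4 ± 2.37 FPKM (SD, n = 3 each) with and without Nogo and did not pass (adjusted p = 0.0716, and 0.00440 to 0.234 without single mice, from limma).

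**Figure D3:**
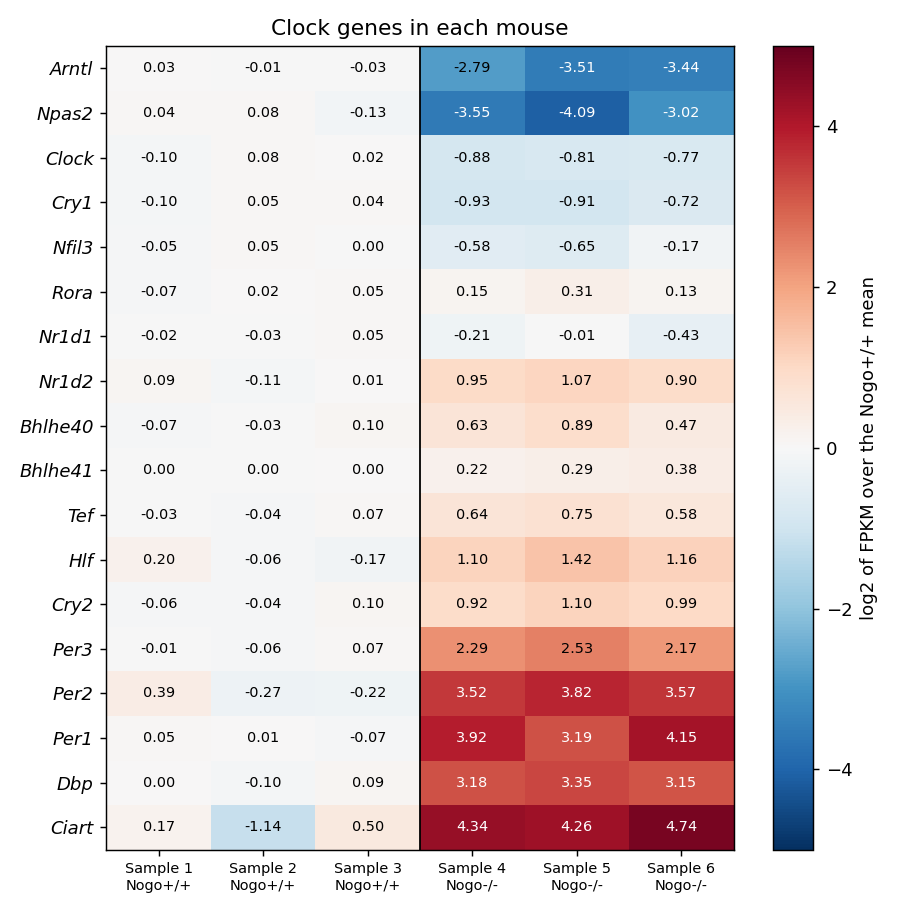
Log2 of the FPKM of each mouse over the Nogo+/+ mean for the 8 genes and 10 further clock genes, printed in each cell and colored from blue (lower) to red (higher). The Nogo-/- columns run from about -4.09 for *Npas2* in Sample 5 to 4.74 for *Ciart* in Sample 6, whereas *Nr1d1* and *Rora* lie between -0.43 and 0.31.

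The partners of the members were also counted, beside the 4.64% of all genes that changed. Of 16 coregulators, 1 fell, none rose and 15 did not pass, a count near that share. The 15 included the REV-ERB corepressor genes *Ncor1* and *Hdac3*. The range was -0.34 to 0.16 on the log2 scale. Of the 16, 4 had an unadjusted p under 0.05 in limma, and 11 had a log2 fold change below 0 (median -0.10). The gene that fell was *Tbl1x*, a subunit of the NCoR complex (adjusted p = 0.0366 from limma), and that call held in 1 of the 6 fits without a single mouse (adjusted p up to 0.128). Of 13 genes that make or break down heme, none passed in limma, with 1 at an unadjusted p under 0.05, and the range was -0.25 to 0.24. So short a list at that share would hold few calls or none. *Alas1*, the first enzyme of heme synthesis, was among these, at 0.11. Of 16 relatives of the members, 10 had a row in the table, of which 2 fell and 8 did not pass. *Heyl* was called in all 6 fits without a single mouse and *Thra* in 0. *Arntl2*, the paralog of *Arntl*, was at -0.21 and did not pass.

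**Figure D4:**
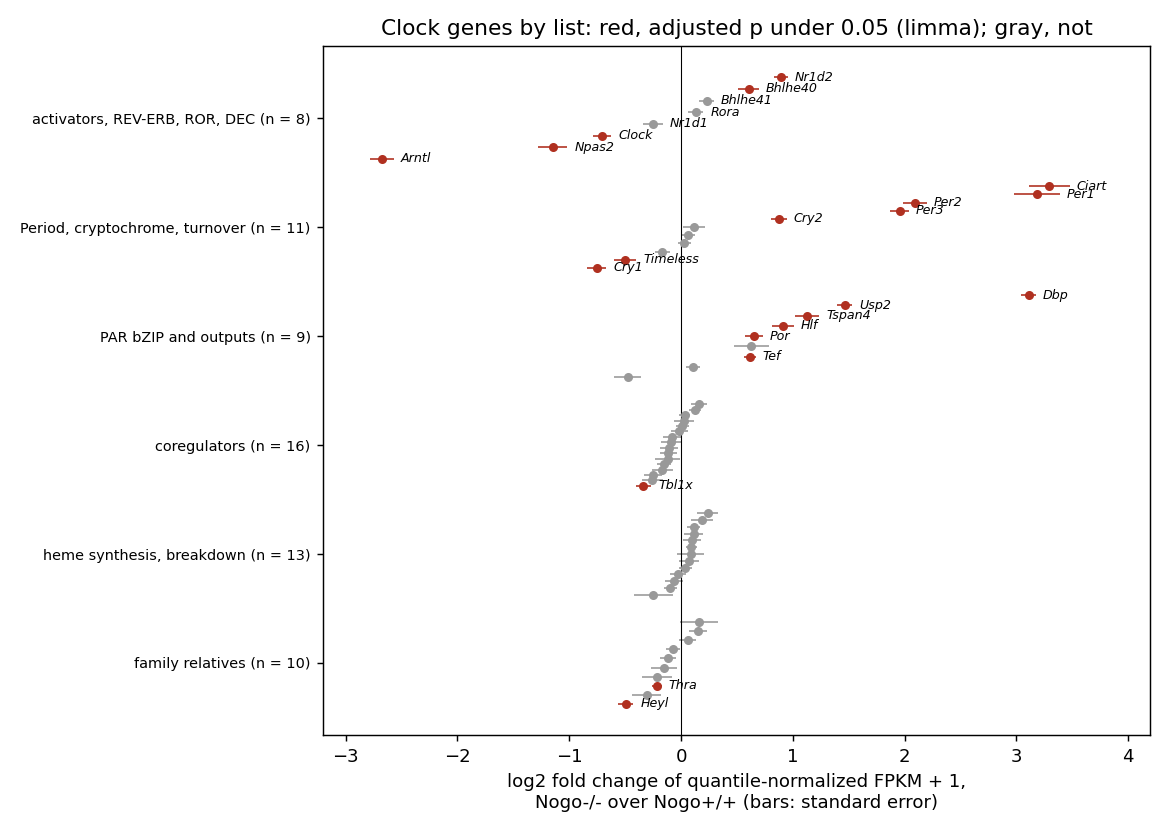
Log2 fold change (horizontal axis, quantile-normalized FPKM + 1, Nogo-/- over Nogo+/+) of each measured gene by list. Bars mark the standard error and red an adjusted p under 0.05 in limma. Red is no test for the 8 genes at the top, chosen on this comparison. Nor is it one for *Per2*, which has a row only through its Nogo-/- values. The 8 genes spread from -2.67 to 0.89, the Period and output lists reach 3.29 and 3.11, and the coregulator and heme lists stay within -0.34 to 0.24.

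Across the 6 libraries, the gene whose log2 values were most like those of *Arntl* was *Clint1*, with a Pearson r of 0.9994, followed by *Npas2* (0.9981), *Lrrc30* (0.9977), *Zfp395* (0.9974) and *Dyrk2* (0.9968). The most opposed were *Glul* (-0.9979), *Dbp* (-0.9968), *Per2* (-0.9967), *Tmem86a* (-0.9963) and *Rnaseh2b* (-0.9960). Pearson r does not measure the size of a change. Against -2.67 for *Arntl*, the log2 fold changes of the genes most like it ran from -0.27 for *Clint1* to -1.61 for *Lrrc30*. Those of the most opposed ran from 0.45 for *Rnaseh2b* to 3.11 for *Dbp*. These are descriptions over 6 points that fall into the 2 genotypes, and 38 of 11385 named genes exceeded an absolute r of 0.99. *Nr1d2* was among those 38, at -0.9922, whereas *Clock* was at 0.9650, *Bhlhe40* at -0.9401 and *Nr1d1* at 0.7388.

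As to the phase of the clock, the Nogo-/- muscles held low *Arntl*, *Npas2*, *Clock* and *Cry1* with high *Dbp*, *Per1*, *Per2*, *Per3* and *Nr1d2*, and the Nogo+/+ muscles the opposite, both with abundant *Nr1d1*. Each mouse was sampled once, so that a clock at another time of day and a clock with other mean levels cannot be told apart in these data. The time of collection in each group is not given in the sources used here.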

How the data were processed

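The authors trimmed adapters with cutadapt 1.4.2, aligned with STAR 2.6.1 to GRCm38.p6, quantified genes with Cufflinks 2.2.1 and deposited FPKM for genes reaching 1 in at least 1 of 6 libraries, which leaves out genes low in every library. A further 6 columns of log2 values normalized by the authors were not used. Column names give sample numbers, which a supplementary table of the study places under a genotype. They do not give the replicate of the labels.

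FPKM were quantile-normalized here, put on the log2 scale with a pseudocount of 1 and tested with limma 3.58.1 in R 4.3.3 (trend, no covariates, Benjamini-Hochberg over 12353 genes, threshold 0.05). FPKM are not counts, so no count test was run. Levels and ratios are from unnormalized FPKM. Depth was found from genes with a single transcript, as the depth that put the largest share of low values within 0.1 of a whole number of fragments. That largest share was 95.0% to 96.5%, and 20% is the share by chance at a depth fixed beforehand. Symbols and coordinates are from GENCODE M21, matched for 12342 identifiers, and promoters from RefSeq. Python 3.11.15 and matplotlib 3.10.9 were used. The fit was tested on simulated data.

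Members, lists and motifs were chosen with earlier results of these data known, and 2 genes of these lists are not reported here. Named are the 8 members, *Rtn4*, up to 4 called genes per list with the largest absolute log2 fold change, genes overlapping a member and the 5 genes most like and most opposed to *Arntl*. Other list genes named were chosen after their values were seen. The 3 libraries of each group are labelled as biological replicates.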

Additional observations from a re-analysis of the deposited data

How the results depend on the processing

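No paired analysis was possible because the columns carry no replicate number of the labels. The log2 fold change of every member kept its direction under all alternatives. By the rule of an adjusted p under 0.05, used for the members to count and not as a test, *Arntl*, *Clock* and *Nr1d2* were counted in all 11, *Npas2* in all 10 that hold it (a mean FPKM of at least 1 removes it) and *Bhlhe40* in 10, the exception being without Sample 2. *Nr1d1* was counted without Sample 5 and *Bhlhe41* without quantile normalization. Leaving out single mice, 188 to 434 genes changed in place of 573 (83 to 196 higher and 105 to 238 lower), with 301, 188, 192 and 378 without Samples 1, 2, 3 and 4. Without quantile normalization 56.3% of the changed genes were higher in place of 40.7%, whereas members counted stayed at 4 to 6 under all alternatives. The Period, output, coregulator, heme and relative lists hold 11, 9, 16, 13 and 10 measured genes. Over these lists together 13 to 17 genes passed in place of 16, where 4.64% of all genes passed in the main fit. The difference of the activator to REV-ERB ratio was -2.92, and -2.62 with a pseudocount of 0.1 and -1.83 with quantile normalization and a pseudocount of 1, an alternative added after seeing the data. That of *Arntl* to *Nr1d1*, -3.03, was -2.42 in the latter, where the pseudocount compresses low values. The normalized columns of the authors were not run as an alternative, since 1 measure per library was kept. Low *Npas2* is limited by depth.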

Other observations

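The region upstream of *Arntl* is rich in the CCAAT box, the site of the factor NF-Y, a motif that was searched after the sequence had been seen. The letters CCAAT, on either strand, occurred 8 times in the 300 bases around the first start site and 7 times around the other, which overlaps it. Of 32851 windows, 37.4% held at least 1, 4 held 7 or more, and no other window held 8. The 250 bases before the first start site are shown because 7 of the boxes lie there, in capitals and each read as ATTGG.
Arntl, upstream, chr7:113207215-113207464, plus strand: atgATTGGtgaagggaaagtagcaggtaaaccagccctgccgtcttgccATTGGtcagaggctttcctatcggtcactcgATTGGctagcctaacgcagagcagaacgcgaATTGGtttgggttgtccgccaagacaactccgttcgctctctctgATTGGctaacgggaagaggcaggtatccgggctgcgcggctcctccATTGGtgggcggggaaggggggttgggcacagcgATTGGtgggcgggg

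*Bhlhe41* varied less between the Nogo+/+ mice than any other of the 1117 genes within 1.2-fold of its level, with a coefficient of variation of 0.102% where the median was 5.97%. *Arntl*, at 2.07%, was below 89.4% of 996 such genes. In the Nogo-/- mice the coefficients of *Bhlhe41* and *Arntl* were 5.56% and 29.1%. Each coefficient rests on the few mice of a group, and the spread from counting fragments was not taken into account. Whether either gene is steadier than others of its level, or steadier with Nogo, was not tested, so these values are a description.

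Within 500 kb of the members, 51 other genes had a row in the table, and 6 of them changed in limma, against 4.64% of all genes. *Kdr*, an endothelial receptor among 5 such neighbors of *Clock* on chromosome 5, fell by 0.92 on the log2 scale, more than *Clock* itself. *Tead1*, among 4 such neighbors of *Arntl* on chromosome 7, fell by 0.39. The remaining neighbors of *Clock* and *Arntl* did not pass. The other 4 changed genes lie around *Nr1d1* on chromosome 11, which also holds *Rtn4*, at a distance of 69 megabases. Of these, *Stard3* (0.63) and *Tcap* (0.55) rose, and *Rara* (-0.43) and *Msl1* (-0.29) fell. These 6 were named after their values were seen.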
